A study of Mus musculus with 3 samples.

Results

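To describe how melan-a melanocytes transcribe the TGF-beta and BMP pathways, 60 genes were selected by symbol from the 22698 genes measured. They comprised the Tgfb, Bmp, Gdf and inhibin/activin ligands, their receptors, the SMADs, the SMAD corepressors Ski and Skil, the antagonists Nog, Grem1, Chrd and Fst, the co-receptor Eng and the 4 Id genes. The rule used symbols and no expression value, but the genes and their roles were chosen with earlier results of these data known. The samples were 3 RNA-seq libraries of untreated cells of melan-a, an immortalized mouse melanocyte line of C57BL/6J background, labelled as replicates 1, 3 and 4. The cells were grown in RPMI 1640 with 10% fetal bovine serum, 200 nM of the phorbol ester 12-O-tetradecanoylphorbol 13-acetate and 200 pM cholera toxin. All 3 libraries came from 1 line and 1 condition, so no groups could be compared. The spread between them can hold differences between cultures and between libraries, which these samples cannot tell apart. According to the labels the cells derive from Ink4a-ARF-/- mice.

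TGF-beta family ligands bind pairs of type I and type II receptor kinases, which phosphorylate receptor-activated SMADs. TGF-beta and activin receptors act mainly on SMAD2 and SMAD3, and BMP receptors on SMAD1, SMAD5 and SMAD9. Both groups of SMADs enter the nucleus with SMAD4, while SMAD6 and SMAD7 inhibit the receptors and the ID proteins are common transcriptional targets of BMP signaling. In skin, TGF-beta is known to help keep melanocyte stem cells quiescent and to lower pigment gene expression, and BMP4 and BMP6 are known to act on pigmentation in culture.

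Values were FPKM, which relates the fragments of a gene to its length and to the size of its library, after TMM scaling (trimmed mean of M values), and were listed to 2 decimals. Because these values are relative to gene length, levels of different genes can be set beside each other on this scale, within a limit. The gene length used is not given. With the length of the longest transcript, 9 of the 29 levels at 1 FPKM or more moved by more than the SD of the replicates. From the whole-read steps of low values, the scaled libraries were estimated at 53900000, 47100000 and 66300000 reads in replicates 1, 3 and 4, and 3 reads were taken as the lowest measurable amount. The line's identity was checked with marker genes. All 8 melanocyte markers reached 1 FPKM in every replicate, with a summed level of 5779 to 6617 FPKM. None of 5 keratinocyte markers, 4 endothelial markers or the 3 of 4 blood markers that were found did so in every replicate. The blood marker Cd68 was at 1.2, 0.76 and 1.6 FPKM in replicates 1, 3 and 4. Of 6 fibroblast markers only Col1a1 reached 1 FPKM in every replicate. Cdkn2a, the gene that encodes Ink4a and ARF, was listed at 19.24, 16.49 and 24.32 FPKM in the libraries labelled Ink4a-ARF-/-. A value per gene does not show which exons the reads covered, so this level neither matches a complete loss of the transcript nor tests a deletion of part of it.

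Of the 60 genes, 29 (48.3%) were at 1 FPKM or more in every replicate, beside 44.1% of all genes measured. Of these, 14 (23.3% of the 60) were at 10 FPKM or more in every replicate, beside 21.7% of all genes. Another 17 (28.3%) were listed at 0 in every replicate, beside 31.4% of all genes. The pathways as a whole thus had shares near those of the transcriptome. In bulk RNA a low level in all cells and a higher level in few cells cannot be told apart. The remaining 14 genes had traces, of which 8 were at 3 reads or more in every replicate. The classes fell by role, as the plot of level classes shows. All 3 TGF-beta ligands, all 4 TGF-beta receptors and co-receptors, both corepressors and 7 of 8 SMADs were at 1 FPKM or more. By contrast, 1 of 11 Bmp genes, 1 of 10 Gdf genes and 1 of 5 inhibin/activin subunits were, and 16 of the 17 genes listed at 0 encode ligands or ligand subunits.

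**Figure D1:**
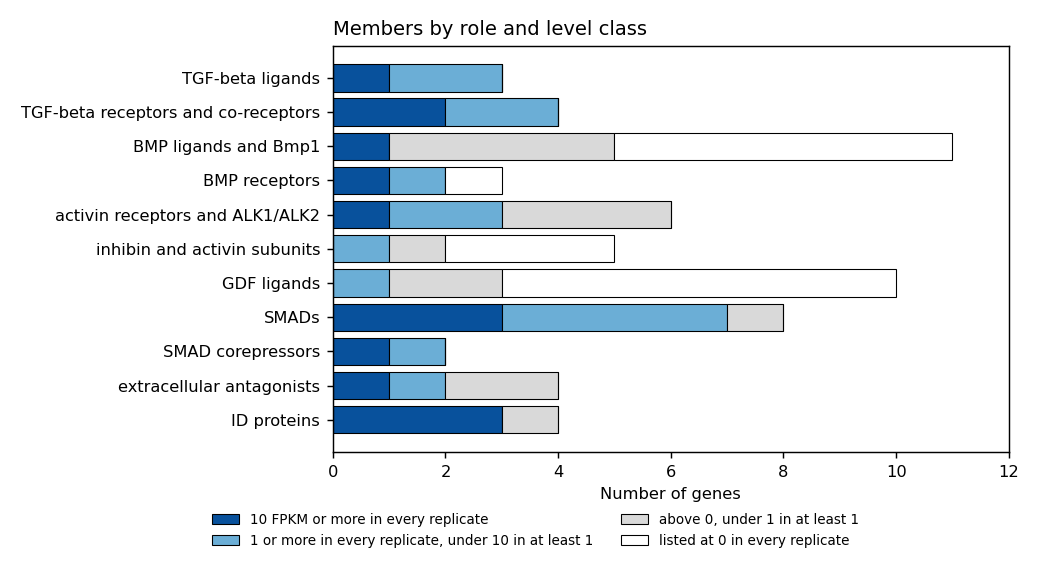
Number of the 60 genes in each level class by role (horizontal axis, number of genes; white, listed at 0 in every replicate; grey, above 0 but under 1 FPKM in at least 1 replicate; light blue, 1 FPKM or more in every replicate but under 10 in at least 1; dark blue, 10 FPKM or more in every replicate). White and grey fill most of the BMP, GDF and inhibin/activin bars, and 7 of 8 SMADs are blue.

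The ID genes ranged from traces of RNA to some of the highest levels of the 60 genes, so the sequences upstream of Id2, Id3 and Id4 are shown first, with that of Grem1, the highest of the extracellular antagonists. These are the 250 bases before the annotated start in RefSeq, on build GRCm38.p6, written 5′ to 3′ on the strand of the gene. Capitals mark CCAAT (the CCAAT box), GGCGCC (the core of a GC-rich BMP response element), GCCNNNGGC (a consensus bound by TFAP2 proteins) and TATAAA (the TATA box), each searched on both strands.
Id2 (chr12:25096093-25096342, minus strand): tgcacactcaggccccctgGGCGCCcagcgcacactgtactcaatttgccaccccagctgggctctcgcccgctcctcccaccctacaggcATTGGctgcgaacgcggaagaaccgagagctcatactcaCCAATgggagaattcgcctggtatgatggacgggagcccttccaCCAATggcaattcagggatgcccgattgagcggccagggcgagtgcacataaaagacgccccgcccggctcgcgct
Id3 (chr4:136143572-136143821, plus strand): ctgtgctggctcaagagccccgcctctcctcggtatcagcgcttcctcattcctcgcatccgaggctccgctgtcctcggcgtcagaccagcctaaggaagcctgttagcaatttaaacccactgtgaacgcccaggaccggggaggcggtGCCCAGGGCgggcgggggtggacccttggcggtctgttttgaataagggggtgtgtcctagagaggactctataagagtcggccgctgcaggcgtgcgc
Id4 (chr13:48260866-48261115, plus strand): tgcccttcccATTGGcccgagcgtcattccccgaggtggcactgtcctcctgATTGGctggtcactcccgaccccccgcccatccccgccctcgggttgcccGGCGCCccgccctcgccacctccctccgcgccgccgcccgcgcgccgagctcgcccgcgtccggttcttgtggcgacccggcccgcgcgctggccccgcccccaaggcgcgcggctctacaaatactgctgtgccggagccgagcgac
Grem1 (chr2:113758649-113758898, minus strand): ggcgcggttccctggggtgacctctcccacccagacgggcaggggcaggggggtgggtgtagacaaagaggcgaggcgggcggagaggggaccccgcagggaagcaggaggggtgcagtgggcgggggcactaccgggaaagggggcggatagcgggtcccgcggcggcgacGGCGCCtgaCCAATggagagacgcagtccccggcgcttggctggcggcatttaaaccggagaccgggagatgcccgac
All of these were rich in GC, with 62.8% upstream of Id2 and of Id3, 75.6% upstream of Id4 and 72.0% upstream of Grem1. The Id2 sequence held 3 CCAAT matches and 1 GGCGCC match, the Id4 sequence held 2 and 1, and the Grem1 sequence held 1 of each. The Id3 sequence held neither but had 1 GCCNNNGGC match. None held TATAAA. Id2, with a high level, and Id4, with traces of RNA, thus shared matches to the same motifs.

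RefSeq upstream sequences were found for 42 of the 60 genes, and Id1, Smad4, Bmp2 and Tgfb3 were among those without one. Of 23 promoters of 20 genes at 1 FPKM or more, 47.8% held CCAAT, 30.4% held GGCGCC and 26.1% held GCCNNNGGC. Of 15 promoters of 12 genes listed at 0, the shares were 26.7%, 6.7% and 6.7%, and over 32851 promoters of all genes they were 33.8%, 9.6% and 13.7%. The SMAD-binding letters CAGAC were in 39.1%, 60.0% and 42.2% of the same sets, TATAAA in 8.7%, 13.3% and 12.4%, and the M-box letters TCATGTG in 0%, 0% and 3.3%. The genes at 1 FPKM or more had promoters with a median GC content of 66.8% and a median ratio of observed to expected CpG of 0.88. For the genes listed at 0 these were 58.8% and 0.33, and for all promoters 52.4% and 0.37. The 12 promoters of 10 genes with lower values held the CCAAT box in 2 cases, GGCGCC in 3 and GCCNNNGGC in 2. The SMAD-binding letters were in 5 of them, the TATA box in 2 and the M-box in 0, and the set had a median GC content of 65.4% and a median CpG ratio of 0.61. Shares of GGCGCC and GCCNNNGGC thus fell from genes at 1 FPKM or more, through those with lower values, to those listed at 0. The share of the SMAD-binding letters rose in that order. The CCAAT box and the TATA box did not follow it, and the M-box had no match in these classes. The sets are small, and neither these orders nor the part of GC content in them was tested. GGCGCC and GCCNNNGGC can overlap each other, and several genes have more than 1 promoter, so the promoters are not independent.

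Among the TGF-beta ligands, Tgfb1 was at 29.87, 37.16 and 17.65 FPKM in replicates 1, 3 and 4 (mean 28.2 ± 9.86, SD, n = 3). Tgfb3 was at 8.35, 8.60 and 8.23 FPKM (8.39 ± 0.19), and Tgfb2 at 1.41, 1.46 and 1.62 FPKM (1.50 ± 0.11). Their order was the same in every replicate, without overlap between their ranges. Tgfb1 exceeded Tgfb3 by 3.58, 4.32 and 2.15 times, and Tgfb3 exceeded Tgfb2 by 5.92, 5.89 and 5.08 times. The former ratio was the less steady because Tgfb1 itself was lowest in replicate 4, whereas Tgfb3 had the lowest coefficient of variation of the 29 genes at 1 FPKM or more (2.25%). With the trend in GC content removed, as described for the replicates, it was 3.39% for Tgfb3, and Bmp1, Fst and Smad5 were lower.

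The TGF-beta receptors and co-receptors were all transcribed, with means from 3.35 to 94.2 FPKM, and the ranges of Tgfbr1 and Tgfbr3 overlapped. Tgfbr2, the type II receptor kinase that binds the ligand, was at 23.50, 23.06 and 19.51 FPKM (22.0 ± 2.19). Tgfbr1 (ALK5), the type I kinase that it activates, was at 3.19, 2.70 and 4.17 FPKM (3.35 ± 0.75). The type II receptor therefore exceeded the type I receptor by 7.37, 8.54 and 4.68 times. Among the co-receptors, Eng (endoglin, which presents ligands to ALK1 in endothelium) had the highest mean of all 60 genes, at 96.51, 110.43 and 75.75 FPKM (94.2 ± 17.5), rank 629 of 22698. It lies at chr2:32502115-32538189 (mm9, plus strand), and 3.20% of its exonic length is shared with Ak1 on the same strand. Tgfbr3 (betaglycan), which presents TGF-beta2, was at 3.75, 3.23 and 3.91 FPKM (3.63 ± 0.36), and its log2 ratio to Eng was -4.65 ± 0.41. The 4 endothelial markers Pecam1, Cdh5, Kdr and Tek summed to 0.01 to 0.03 FPKM, with Tek at 0 in every replicate.

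**Figure D2:**
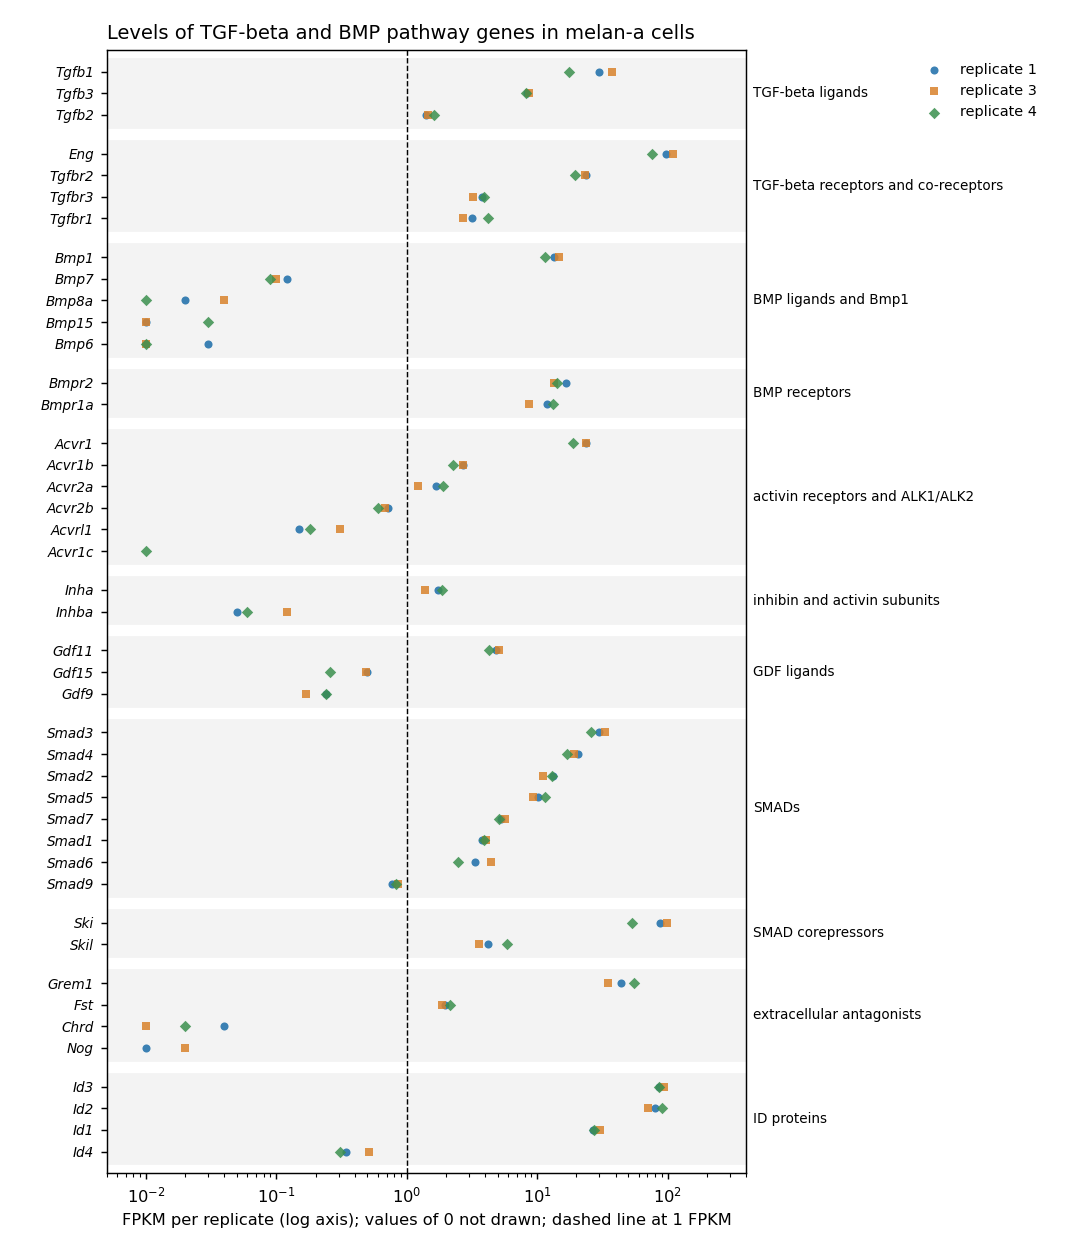
FPKM of the 43 genes with a value above 0, in each replicate (horizontal log axis; circle, replicate 1; square, replicate 3; diamond, replicate 4; dashed line, 1 FPKM), grouped by role. Points of a gene mostly lie close together compared with the distance between paralogs such as Id1 and Id4, and Tgfb1 and Ski are the widest of the genes to the right of the line.

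BMP ligand transcripts were at or near 0. Bmp2, Bmp3, Bmp4, Bmp5, Bmp8b and Bmp10 were listed at 0 in every replicate, which at their lengths means at most 2 reads in a replicate. Bmp7, the highest of the BMP ligands, was at 0.12, 0.10 and 0.09 FPKM, an estimated 26, 19 and 24 reads. Bmp6, Bmp8a and Bmp15 were between 0.01 and 0.04 FPKM, and each fell under 3 reads in at least 1 replicate. Bmp8a and Bmp8b are near-identical copies, so reads shared by both may have been dropped or split. The 10 BMP ligand genes summed to 0.18, 0.16 and 0.14 FPKM, and the 3 Tgfb genes to 39.63, 47.22 and 27.50 FPKM, 220, 295 and 196 times as much. These sums, like those of the type I receptors and of the SMADs below, were chosen after the values were seen. Bmp1 shares the name but encodes a protease that cleaves procollagen and the antagonist chordin, and it was at 13.37, 14.74 and 11.49 FPKM (13.2 ± 1.63).

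In contrast to their ligands, BMP receptors were present. Bmpr2, the BMP type II receptor, was at 16.60, 13.38 and 14.09 FPKM (14.7 ± 1.69). Of the type I receptors, Acvr1 (ALK2) was at 23.51, 23.83 and 18.85 FPKM (22.1 ± 2.79) and Bmpr1a (ALK3) at 11.84, 8.64 and 13.14 FPKM (11.2 ± 2.32). Bmpr1a was below Acvr1 in every replicate, at 0.504, 0.363 and 0.697 of its level. Bmpr1b (ALK6) was listed at 0 throughout, and Acvrl1 (ALK1), the endothelial type I receptor that works with endoglin, was at 0.15, 0.31 and 0.18 FPKM, an estimated 34, 62 and 51 reads. Acvr1 exceeded Acvrl1 by 76.9 to 157 times. The type I receptors that act on SMAD1, SMAD5 and SMAD9 (Acvr1, Bmpr1a, Bmpr1b and Acvrl1) summed to 33.5 ± 1.77 FPKM and those that act on SMAD2 and SMAD3 (Tgfbr1, Acvr1b and Acvr1c) to 5.92 ± 0.54 FPKM, a ratio of 6.02, 6.08 and 4.98.

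Activin receptors were low. Acvr1b (ALK4), the activin type I receptor, was at 2.71, 2.69 and 2.28 FPKM (2.56 ± 0.24), and its range overlapped that of Tgfbr1. The type II receptors Acvr2a and Acvr2b were at 1.68, 1.21 and 1.91 FPKM and at 0.72, 0.68 and 0.60 FPKM. Acvr2a thus exceeded Acvr2b in every replicate, by 1.78 to 3.18 times, and Bmpr2 exceeded Acvr2a by 7.38 to 11.1 times. Acvr1c (ALK7), a receptor for nodal and some activins, had a value only in replicate 4, at 0.01 FPKM. Of the subunits, Inha, the alpha chain found in inhibins but not in activins, was at 1.74, 1.37 and 1.85 FPKM, an estimated 138, 95 and 181 reads. The activin beta chains were at 0.05, 0.12 and 0.06 FPKM for Inhba and listed at 0 for Inhbb, Inhbc and Inhbe. The alpha chain was therefore the one subunit at 1 FPKM or more.

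Among the growth differentiation factors, Gdf11, an activin-like ligand, was at 4.80, 5.07 and 4.28 FPKM (4.72 ± 0.40). Gdf15, a stress-induced hormone that signals through GFRAL, was at 0.50, 0.49 and 0.26 FPKM, and Gdf9, an oocyte factor, at 0.24, 0.17 and 0.24 FPKM. Gdf1, Gdf2, Gdf3, Gdf5, Gdf6, Gdf7 and Gdf10 were listed at 0. The annotated exons of Gdf1 lie entirely within Lass1 on the same strand, where reads cannot be given to one gene, so its 0 carries no information.

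Of the receptor-activated SMADs, Smad3 was the highest at 29.84, 33.18 and 25.97 FPKM (29.7 ± 3.61), followed by Smad2 at 13.31, 10.99 and 13.05 FPKM (12.5 ± 1.27). Smad5 was at 10.06, 9.32 and 11.45 FPKM (10.3 ± 1.08), Smad1 at 3.77, 4.07 and 3.93 FPKM (3.92 ± 0.15) and Smad9 at 0.77, 0.85 and 0.82 FPKM (0.81 ± 0.04). Each branch thus had 1 leading gene, with Smad2 at 0.446, 0.331 and 0.503 of the level of Smad3 and Smad1 at 0.375, 0.437 and 0.343 of that of Smad5. Smad2 and Smad3 together summed to 43.15, 44.17 and 39.02 FPKM and Smad1, Smad5 and Smad9 to 14.60, 14.24 and 16.20 FPKM, a ratio of 2.96, 3.10 and 2.41. The sums of type I receptors leaned the other way, toward the BMP branch, whereas of the type II receptors Tgfbr2 (22.0 FPKM) was above Bmpr2 (14.7 FPKM). Smad4, the partner of both branches, was at 20.47, 19.26 and 17.02 FPKM (18.9 ± 1.75).

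The inhibitory SMADs were below Smad2, Smad3, Smad4 and Smad5 in every replicate, but both were above Smad9 and Smad7 was also above Smad1. Smad7, which acts on both branches, was at 5.30, 5.62 and 5.07 FPKM (5.33 ± 0.28) and Smad6, which acts mainly on BMP receptors, at 3.36, 4.44 and 2.48 FPKM (3.43 ± 0.98). The corepressors of SMAD complexes differed far more. Ski was at 86.67, 98.99 and 53.31 FPKM (79.7 ± 23.6) and Skil (SnoN) at 4.22, 3.60 and 5.89 FPKM (4.57 ± 1.18), so that Ski exceeded Skil by 20.5, 27.5 and 9.05 times. In the values as listed, the 2 genes were ordered oppositely across the replicates, with Ski highest and Skil lowest in replicate 3. They differ in GC content, at 55.6% for Ski and 41.0% for Skil. With the trend in GC content removed, as described for the replicates, Skil was at 4.18, 4.38 and 4.88 FPKM. It was then lowest in replicate 1, while Ski, at 85.8, 89.7 and 59.4 FPKM, was still highest in replicate 3.

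Of the extracellular antagonists, Grem1 (gremlin 1, which binds BMP2, BMP4 and BMP7) was at 43.76, 35.08 and 54.87 FPKM (44.6 ± 9.92), rank 1548 of all genes. It lies at chr2:113586321-113598803 (mm9, minus strand). Fst (follistatin), an activin antagonist, was at 1.97, 1.85 and 2.14 FPKM (1.99 ± 0.15). Chrd and Nog, which also sequester BMPs, were at most 0.04 and 0.02 FPKM, and Nog was under 3 reads in every replicate. Grem1 thus had more RNA than any BMP ligand it is known to bind, of which only Bmp7 was above 0.

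The ID genes, which encode helix-loop-helix proteins that bind and block E proteins, were among the highest. Id3 was at 85.79, 93.90 and 85.47 FPKM (88.4 ± 4.78), rank 689, and Id2 at 80.18, 70.86 and 90.94 FPKM (80.7 ± 10.0), rank 790. Their ranges overlapped and Id2 was the higher in replicate 4. Id1 was at 26.80, 30.09 and 27.10 FPKM (28.0 ± 1.82) and Id4 at 0.34, 0.51 and 0.31 FPKM, an estimated 30, 40 and 34 reads. Id1 was at 0.312, 0.320 and 0.317 of the level of Id3. This was the steadiest of all 19 ratios across replicates (log2 ratio -1.66 ± 0.02), but it came to -2.14 with the length of the longest transcript. Id1 exceeded Id4 by 78.8, 59.0 and 87.4 times. In total, 23 pairs of paralogs or partners were compared within replicates. A ratio was computed for the 19 pairs in which both genes reached 3 reads, and in 17 of them the ranges did not overlap. The exceptions were Tgfbr1 with Acvr1b and Id3 with Id2. With 3 paired values the smallest exact two-sided p is 0.25, so no test was made.

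**Figure D3:**
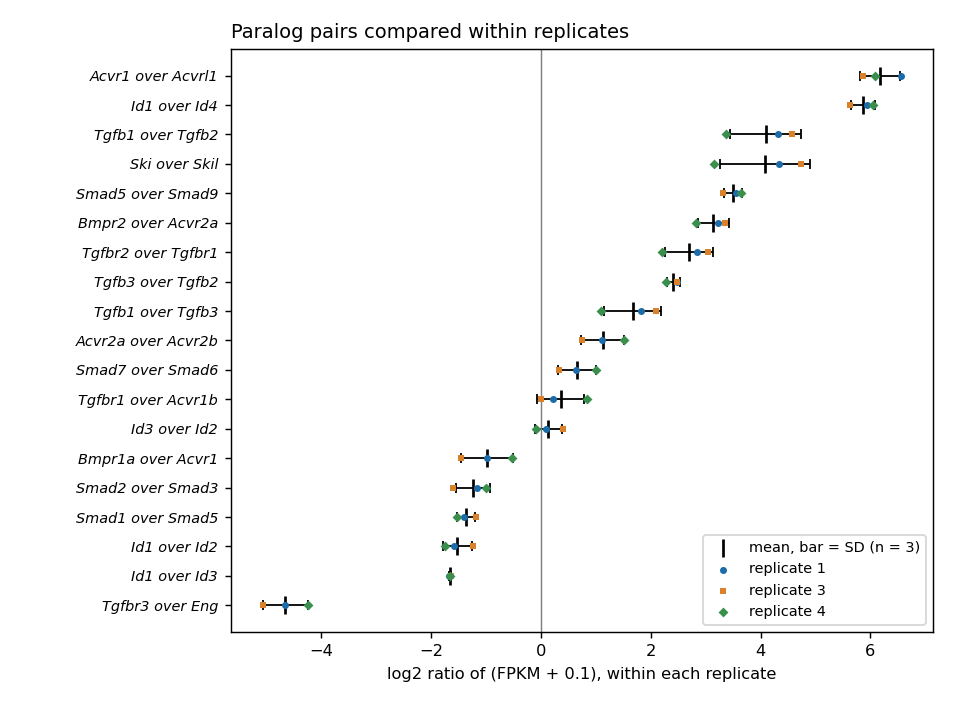
Log2 ratio of (FPKM + 0.1) within each replicate for the 19 pairs with a ratio (symbols, replicates; tick and bar, mean and SD, n = 3; vertical line, equal levels). Acvr1 over Acvrl1 (6.17 ± 0.36) and Id1 over Id4 (5.87 ± 0.22) lie farthest to the right, and Tgfbr3 over Eng (-4.65 ± 0.41) farthest to the left.

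When the 29 genes at 1 FPKM or more were put in order of their mean, 6 of 28 neighbouring pairs had ranges that did not overlap. These breaks lay between Grem1 and Smad3, Id1 and Acvr1, Smad4 and Bmpr2, Smad5 and Tgfb3, Tgfb3 and Smad7, and Acvr1b and Fst. The other 22 neighbours, among them Eng, Id3, Id2 and Ski at the top, had overlapping ranges. Of these, Tgfbr2 was nevertheless above Smad4, Smad7 above Gdf11, Smad1 above Tgfbr3, Tgfbr1 above Acvr1b and Fst above Inha in 3 of 3 replicates.

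The replicates differed in a way that followed transcript GC content. Between replicates 3 and 4 the log2 ratio of the 29 genes had a median of 0.06 and a range of -0.71 to 1.07. The 16 genes that were higher in replicate 3 had a GC content of 48.7 to 62.5% (median 54.1%), and the 13 that were lower had 39.9 to 59.7% (median 44.7%). Across these 29 genes, which share the same libraries, Spearman's rho of GC content with the log2 ratio was 0.78 for replicates 3 and 4, and across all 10006 genes at this level it was also 0.78. The spread of the 29 genes (SD 0.47) was near that of all genes (SD 0.46), and replicate 1 lay between the others for 21 of 29.

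Of these 29 genes, only Tgfb1 differed by more than 2-fold between any 2 replicates. It has a GC content of 62.5%, and its log2 ratio of replicate 3 to 4 was 1.07, beside a median of 0.59 ± 0.24 (SD) over 342 genes within 2 percentage points of its GC content. For Ski, at 55.6% GC, it was 0.89 beside 0.31 ± 0.25 over 2093 genes, and for Acvr1, at 48.7% GC, 0.34 beside -0.10 ± 0.30 over 2135 genes. Inha went the other way, at -0.43 beside 0.47 ± 0.27 over 1028 genes, on an estimated 95 to 181 reads. The value of Eng (0.54 beside 0.39 ± 0.26) lay within 1 SD of genes of like GC content, as did that of Grem1 (-0.65 beside -0.33 ± 0.36). When the trend with GC content was removed from all genes, the median coefficient of variation of the 29 genes fell from 11.52 to 6.23%, beside 11.39 to 7.24% over all genes. That of Eng went from 18.5 to 5.47%, of Tgfb1 from 34.9 to 16.2% and of Ski from 29.7 to 21.1%, and it was lower for 21 of the 29 genes. It was higher for the others, among them Inha (15.2 to 30.8%), Acvr1 (12.6 to 16.0%) and Bmpr2 (11.5 to 13.5%). The cause of the trend was not tested.

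**Figure D4:**
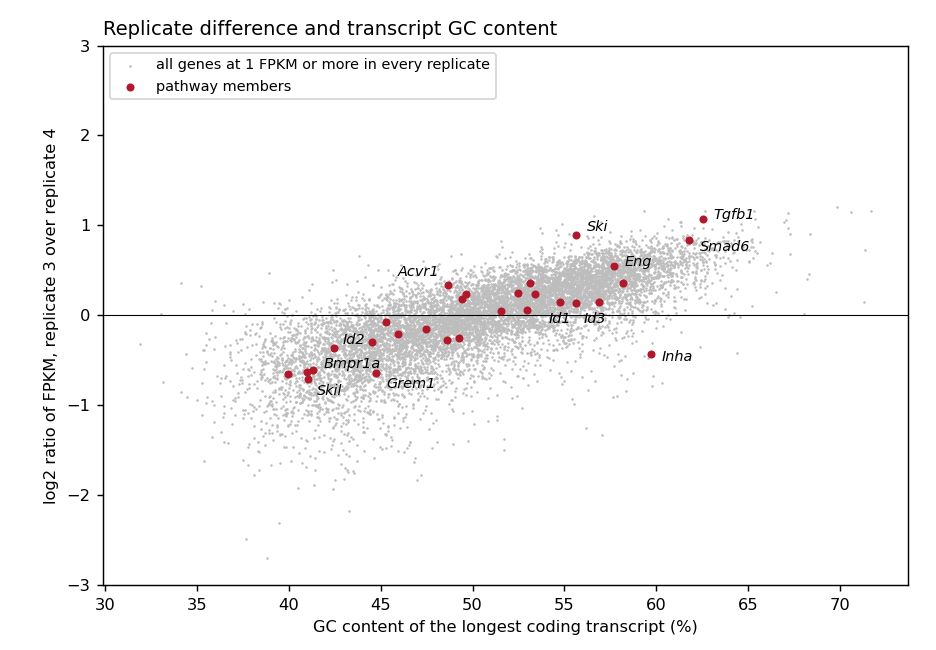
Log2 ratio of FPKM in replicate 3 over replicate 4 (vertical axis) against the GC content of the longest coding transcript (horizontal axis, %) for all genes at 1 FPKM or more in every replicate (grey) and the 29 pathway genes (red). The red points follow the grey band from Skil and Bmpr1a at the low end to Tgfb1 at the high end, with Ski above it and Inha below it.

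The other genes of the pathways were described with a list of 83 genes, of which 51 (61.4%) were at 1 FPKM or more in every replicate, beside 44.1% of all genes. Among 14 genes of latency, release and processing, 8 were, led by Ltbp3 (latent TGF-beta binding protein 3) at 103.47, 122.41 and 68.66 FPKM. Thbs1 (thrombospondin 1), which can release TGF-beta from latency, was at 41.38, 45.14 and 42.09 FPKM and the proprotein convertase Pcsk6 at 33.19, 41.98 and 27.64 FPKM. Each of these 3 had a mean above that of Tgfb1.

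Inside the cell, 19 of 20 SMAD regulators and partners and 7 of 7 genes of SMAD-independent TGF-beta signaling were at 1 FPKM or more. The share over all genes was 44.1%, and the list was chosen with earlier results of these data known. Fkbp1a, whose product FKBP12 binds type I receptors, was at 254.79, 292.19 and 238.25 FPKM. Stub1 (CHIP), a ubiquitin ligase, was at 92.51, 109.23 and 81.26 FPKM, and Hgs, an endosomal sorting protein, at 52.51, 59.71 and 45.12 FPKM. The SMAD-independent genes were led by Tab2 (31.90, 28.95 and 29.15 FPKM), Map3k7, which encodes the kinase TAK1 (12.66, 11.44 and 13.46 FPKM), and Xiap (9.02, 8.07 and 10.90 FPKM).

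The other ligands of the family were at or near 0, while receptors and antagonists were mixed. Of the other antagonists and modulators 28.6% were at 1 FPKM or more, and of the other receptors 42.9%, beside 44.1% of all genes. Of 5 other ligands of the family, Nodal, Lefty1, Lefty2 and Mstn were listed at 0 and Amh was at 0.03 to 0.07 FPKM. Of 14 other antagonists and modulators, 4 were at 1 FPKM or more, namely Twsg1, a BMP-binding protein, at 36.11, 32.61 and 39.52 FPKM, Dand5 and Crim1 at 2.07 to 2.96 FPKM, and Fstl3 at 1.24 to 1.38 FPKM. Of 7 other receptors, 3 were, namely the BMP co-receptor Rgmb at 12.06, 11.49 and 10.90 FPKM, the pseudoreceptor Bambi at 7.57, 8.32 and 7.85 FPKM, and Rgma at 5.98, 6.04 and 4.35 FPKM.

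Of 16 textbook target genes, 10 (62.5%) were at 1 FPKM or more, beside 44.1% of all genes. Fn1 (fibronectin) was the highest at 724.93, 663.08 and 695.47 FPKM, followed by the cell cycle inhibitor Cdkn1a (p21) at 314.15, 381.84 and 273.09 FPKM and Cyr61, a matricellular protein, at 126.60, 145.20 and 112.01 FPKM. Cdkn2b (p15), a cell cycle inhibitor induced by TGF-beta, was at 68.56, 73.95 and 62.30 FPKM. Pmepa1, Junb and Atoh8 had means between 17.8 and 38.4 FPKM, and Runx2, Col1a1 and Ctgf between 1.42 and 2.05 FPKM. Low values were found for Msx1 (0.30 to 0.42 FPKM), Hey1 (0.09 to 0.18 FPKM), Dlx5 (0.04 to 0.09 FPKM) and Msx2 (0.02 to 0.06 FPKM), and the liver gene Hamp was listed at 0. Tgfbi, a matrix gene named for its induction by TGF-beta, had a value only in replicate 3, at 0.01 FPKM. Target genes therefore spanned the whole range of levels. All of them have other regulators. With a single condition, in medium with phorbol ester, cholera toxin and serum, their levels carry no measure of signaling.

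**Figure D5:**
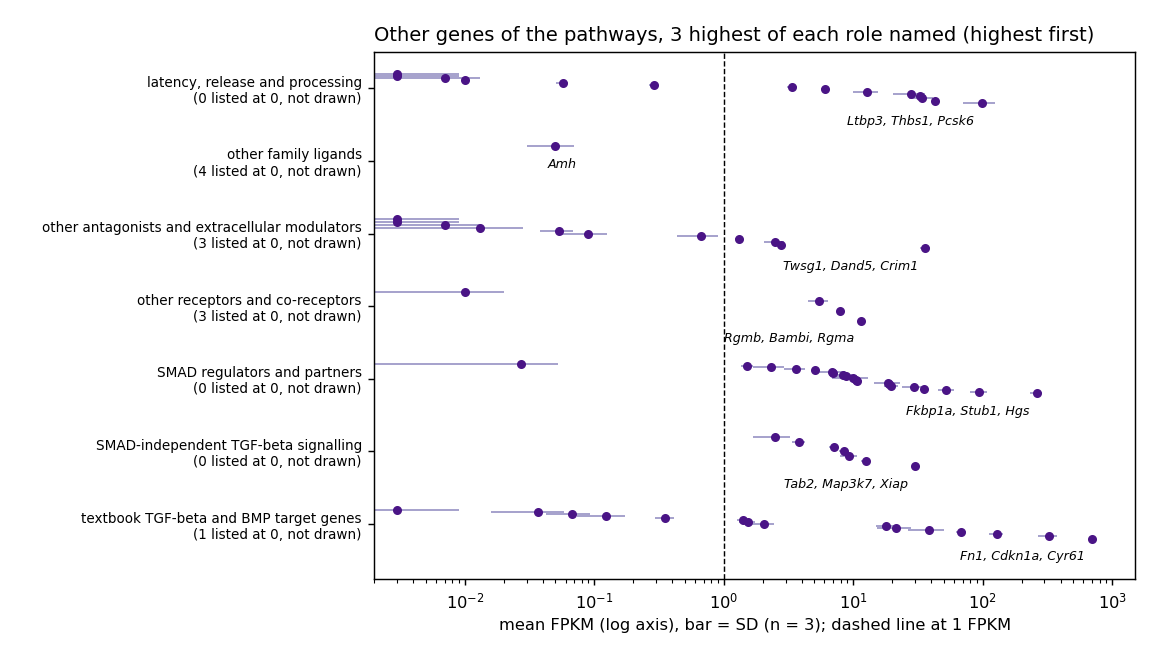
Mean FPKM (horizontal log axis; bars, SD, n = 3; lower bars that would pass 0 are drawn to the edge; dashed line, 1 FPKM) of 72 of the 83 other pathway genes by role, with the 3 highest of each role named and the 11 genes listed at 0 given as counts. Regulators inside the cell lie to the right of the line with 1 exception, and the other ligands lie to its left.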

How the data were processed

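RNA-seq of 3 melan-a replicates was analysed. According to the methods of the study and the submitters' notes, libraries were stranded, the 10 5'-most bases of reads were trimmed, reads were aligned to mm9 with STAR 2.3.0e, rRNA reads were discarded, and genes of Ensembl were counted with HTSeq 0.5.3p3. The authors deposited TMM-scaled FPKM values. How counts were converted to FPKM is not given in the sources used here, so no count test was used.

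A symbol was found for 22324 of the 22698 genes. Gene positions, lengths and GC content were taken from Ensembl release 65 on mm9, with a GC content for 22315 genes. The study states a later Ensembl release for its counts, so the lengths used here, and the read numbers estimated from them, can differ. Members, lists, pairs and roles were chosen with earlier results of these data known, and Cdkn2b was moved from the regulators to the targets after its value was seen. Members with a mean of 1 FPKM or more were to be given per replicate and the others by range, and some of the others are also given per replicate, chosen after their values were seen. Of the other pathway genes, the 3 highest of each role and the textbook targets are named. Ranges that do not overlap, with the same order in every replicate, were called apart. Ratios used a pseudocount of 0.1. Library sizes were those at which low values of single-transcript genes gave whole reads (86 to 165 genes, mean distance from a whole number 0.05 to 0.061 reads). The floor of 3 reads covers counting error only. GC trends were removed by lowess with a span of 0.3. Alternatives were other thresholds, pseudocounts, transcript lengths and scalings, the median, each replicate left out and the GC correction of the variation, which was added after seeing the data. Scripts were tested on simulated data and used matplotlib 3.10.9, numpy 2.4.6, statsmodels 0.14.6 and pandas 2.3.3 under Python 3.11.15. ChIP-seq, microarrays and sequence reads were not analysed here. 1 marker list and 1 target gene are not reported here.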

Additional observations from a re-analysis of the deposited data

How the results depend on the processing

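The count of 29 genes at 1 FPKM or more in every replicate stood beside 44.1% of all genes. At a threshold of 0.5 FPKM it was 31, beside 47.0% of all genes, and at 2 FPKM 25, beside 39.7%. For any value above 0 it was 41, beside 60.1%, and after rescaling each library to a common sum 31, beside 48.0%. It was 29 under the other alternatives and without each replicate, beside 44.1 to 45.1%. Of 19 ratios, 17 were apart, 19 with the length of the longest transcript or with the GC correction, and 18 without each replicate in turn. None reversed. A pseudocount of 1 moved 7 ratios by more than their SD and no pseudocount moved 2. The log2 ratio of Acvr1 over Acvrl1 came to 4.24 and 6.76, and that of Id1 over Id4 to 4.39 and 6.21. The length of the longest transcript moved 4 ratios by more than their SD. Acvr1 over Acvrl1 then came to 6.56, Smad1 over Smad5 to -0.92, Id1 over Id3 to -2.14 and Id3 over Id2 to 0.62. The median coefficient of variation was 6.23% with the GC correction, by construction of a correction fitted to the same libraries. With the length of the longest transcript, 9 of 29 levels moved by more than the SD of the replicates. Id3 then came to 124 FPKM, above Eng, and Acvr1 to 32.4 FPKM. No paired analysis was possible because there was a single group, so that replicate numbers pair no samples across groups. Ratios between genes were taken within replicates. Depth limits the 6 genes with traces under 3 reads and the 17 listed at 0, for which no lack of expression can be stated.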
